A study of Mus musculus with 10 samples.

Results

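The interferon regulatory factor (IRF) family was followed through Irf1, Irf2, Irf3, Irf4, Irf5, Irf7, Irf8 and Irf9, which were taken by name from the gene expression table and are 8 of its 55359 genes. IRFs are transcription factors with a shared DNA-binding domain at the N-terminus, which recognizes the interferon-stimulated response element (ISRE), a repeat of GAAA units in the promoters of antiviral genes. IRF3 and IRF7 are phosphorylated downstream of nucleic acid sensors and switch on the interferon genes, whereas IRF9 is the DNA-binding subunit of the ISGF3 complex that answers interferon at its target genes. In bone marrow, IRF8 and IRF4 pair with the ETS factor PU.1 (encoded by Spi1) on composite sites, and IRF8 is known for its role in monocyte and dendritic cell development.

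RNA was sequenced from bone marrow cells left after depletion of mature lineages with a kit (Lin- cells), with 5 libraries of Dhx9f/f mice (WT) and 5 of Dhx9f/f;MX1 mice (cKO), whose genotype entry reads Dhx9 knock down. Both groups of mice carry the floxed Dhx9 allele, and those labelled cKO also carry Cre under the Mx1 promoter, which interferon itself drives. Cre is induced with poly(I:C), a double-stranded RNA mimic that triggers interferon, and the general methods give several doses with analysis a week after the first. Legends of other experiments in the study date the analysis of all mice from the first injection, but for the WT mice sequenced here no source used states whether they were injected. If they were not, the effect of poly(I:C) on IRF genes and that of the genotype cannot be told apart. The ages of the mice were not given in the sources used here, and neither was whether each library came from 1 mouse, so the p-values measure the spread between these libraries. The values are FPKM, fragment numbers corrected for gene length and for sequencing depth, so levels of different genes can be set side by side.

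Depth read from the low FPKM values was 15070535 to 18820403 fragments in WT (median 16474958) and 13789970 to 17169620 in the libraries labelled cKO (median 15811564). The targeted gene Dhx9 went against the labels, at 69.7 ± 2.84 FPKM in WT and 139.9 ± 12.0 FPKM in the libraries labelled cKO (SD, n = 5 each), so every direction given here rests on the labels alone. Xist was above 99 FPKM in WT libraries 3, 4 and 5 and at most 0.09 FPKM in the other 7 libraries, so the groups also differed in the sex of the mice. Kit, a receptor of stem and progenitor cells, was present in both groups at 45.9 ± 7.83 and 25.5 ± 5.57 FPKM (SD, n = 5 each), and so were granule, erythroid and platelet genes of maturing cells. Fewer cells of a type and less RNA per cell cannot be told apart in such bulk samples.

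Promoter sequence was examined because several IRF genes are themselves interferon targets. The 250 bases before the start of the canonical transcript were searched on both strands for the ISRE core (GAAA, 2 bases of any kind, GAAA), the ETS-IRF composite site (GGAA, 2 bases of any kind, GAAA), the gamma-activated site (GAS, TTCNNNGAA) and a PU.1 site (GAGGAAGT). Among 18623 promoters of tested genes, 3.3% held the ISRE core, 2.43% the composite site, 6.71% a GAS and 2.22% the PU.1 site. Of 27 ISRE-driven interferon-stimulated genes with a promoter examined, 12 held the ISRE core. Of the 8 IRF promoters, 3 held a GAS, 1 held the ISRE core and the composite site in overlapping letters, and 0 held the PU.1 site. The 60 bases around the matches are given here from the GRCm39 genome, on the strand of the gene, with the matched letters in capitals. They are the matches within the searched windows, and sites elsewhere were not sought.
Irf1 promoter, chr11:53660741-53660800, plus strand: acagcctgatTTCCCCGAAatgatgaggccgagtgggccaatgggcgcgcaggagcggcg
Irf2 promoter, chr8:47192523-47192582, plus strand: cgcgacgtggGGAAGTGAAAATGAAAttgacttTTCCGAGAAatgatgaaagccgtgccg
Irf8 promoter, chr8:121462916-121462975, plus strand: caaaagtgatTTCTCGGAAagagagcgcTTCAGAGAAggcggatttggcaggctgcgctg
The capitals mark 1 GAS in Irf1, the composite site and ISRE core run together and then a GAS in Irf2, and a pair of GAS in Irf8. No match to the searched letters lay in the windows of Irf3, Irf4, Irf5, Irf7 and Irf9. Only the canonical start of each gene was used, and the windows of Irf2, Irf5 and Irf9 lie inside the annotated bounds of the gene. A match describes letters only and is not a measured binding site.

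All 8 IRF genes passed the filter of a mean of at least 0.1 FPKM. In a limma fit over 18742 genes, 4 of the 8 fell in the libraries labelled cKO at an adjusted p under 0.05 and at least 2-fold, namely Irf8, Irf5, Irf1 and Irf4, whereas 16.8% of all genes tested were called lower. None rose, against 4.6% of all genes, and 0 of the 8 had a positive change at an unadjusted p under 0.05. Irf2 and Irf3 had lower values at an adjusted p under 0.05 but by less than 2-fold, so that 6 of the 8 passed on the adjusted p alone, against 28.3% of all genes that did so as lower and 16.7% as higher. For 5 genes, all 5 libraries labelled cKO lay below all 5 of WT, which held for 21.6% of the genes tested. The median log2 fold change of the 8 was -1.26 and that of all genes tested -0.11. Leaving out libraries ended the call for Irf4 alone of these 4, as given with that gene.

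**Figure D1:**
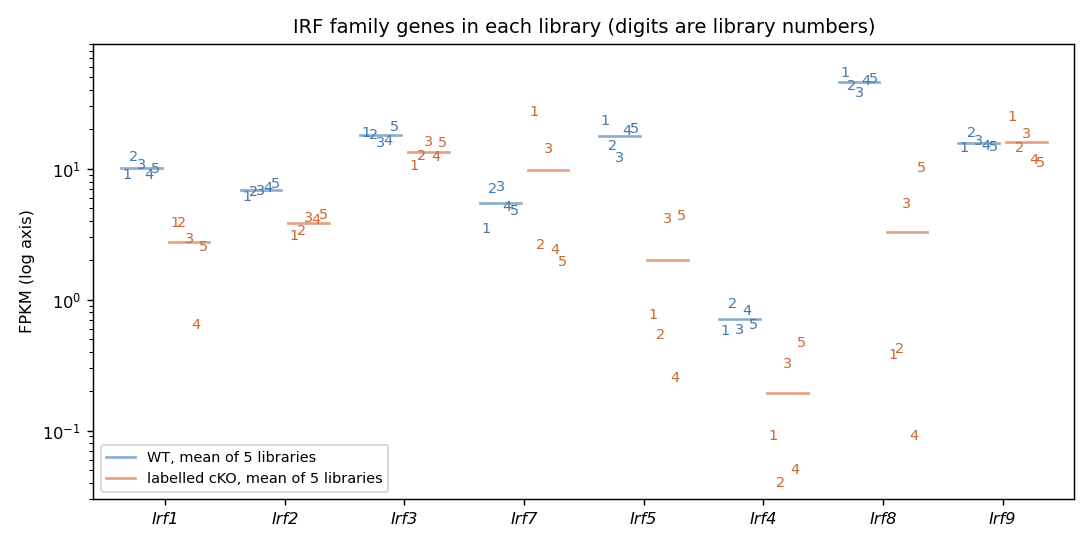
Level of each IRF gene in FPKM on a log axis, with 1 digit per library giving its number, blue for WT and orange for libraries labelled cKO, and a line at the mean of each group of 5. The WT libraries of a gene lie close together, whereas the libraries labelled cKO spread widely for Irf8 (0.09 to 10.16), Irf5 (0.25 to 4.35) and Irf7 (1.95 to 27.34).

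In WT, Irf8 was the most abundant family member at 46.2 ± 5.84 FPKM, and it lay above the next gene in all 5 libraries. Then came Irf3 (18.0 ± 2.05), Irf5 (17.9 ± 4.43) and Irf9 (15.9 ± 1.72 FPKM), whose ranges overlapped from each to the next. Irf1 followed at 10.2 ± 1.40 FPKM, and below it Irf2 at 6.89 ± 0.602 FPKM overlapped Irf7 at 5.51 ± 1.59 FPKM. Irf4 was lowest at 0.712 ± 0.156 FPKM (SD, n = 5 for each gene). Irf8 supplied 35.4% to 41.4% of the summed FPKM of the 8 genes in the WT libraries.

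The order was different in the libraries labelled cKO. Irf9 (16.2 ± 5.72 FPKM) and Irf3 (13.4 ± 2.38 FPKM) stood first, followed by Irf7 (9.71 ± 11.1), Irf2 (3.84 ± 0.605), Irf8 (3.29 ± 4.43), Irf1 (2.76 ± 1.31), Irf5 (2.01 ± 2.05) and Irf4 (0.194 ± 0.192 FPKM; SD, n = 5 for each gene). Every neighbouring pair in this order overlapped. The sum over the 8 genes was 31.66 to 70.89 FPKM, against 107.7 to 129.5 FPKM in WT. Irf8 supplied 0.284% to 20.04% of it, Irf9 21.9% to 38.1% (11.2% to 15.3% in WT) and Irf3 14.7% to 39.1% (13.7% to 16.4% in WT).

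**Figure D2:**
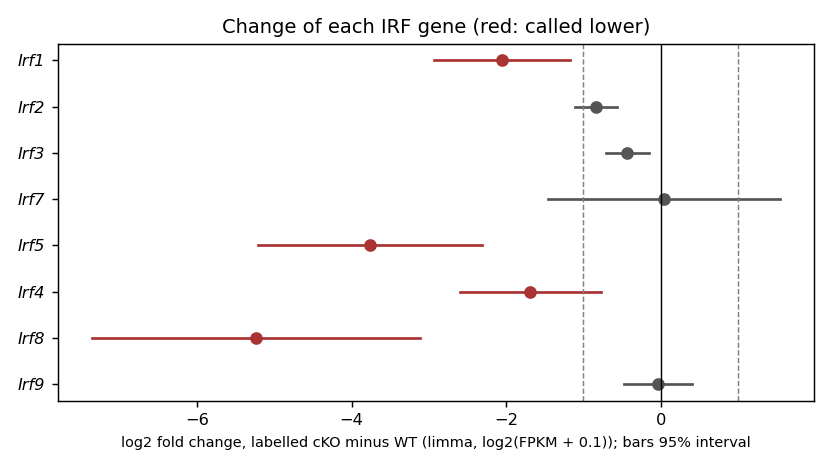
Log2 fold change of each IRF gene, libraries labelled cKO minus WT, from limma on log2(FPKM + 0.1), with bars for the 95% interval and dashed lines at a 2-fold change. The points run from -5.24 for Irf8 to 0.04 for Irf7, and the intervals of Irf7 (-1.46 to 1.55) and Irf9 (-0.48 to 0.41) include 0.

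Irf8 (ENSMUSG00000041515, chromosome 8 of GRCm39 from 121463096 to 121485659, plus strand) changed most. It had 53.65, 43.3, 38.13, 47.23 and 48.74 FPKM across WT libraries 1 to 5, against 0.38, 0.42, 5.41, 0.09 and 10.16 FPKM across the 5 libraries labelled cKO. The groups did not overlap, and within the libraries labelled cKO numbers 3 and 5 lay far above the other three. The mean was 14.0-fold lower, and on the log2(FPKM + 0.1) scale the change was -5.24 (standard error, SE, 0.961, 95% interval -7.36 to -3.12, adjusted p = 0.00127 by limma). The exact permutation test of the 252 splits into 5 and 5 gave p = 0.00794 (two-sided), the smallest it can give. With the 7 libraries that have Xist at or under 1 FPKM, the log2 fold change was -5.31 (adjusted p = 0.0399).

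Irf5, which acts in Toll-like receptor signalling of myeloid cells, lies on chromosome 6 from 29526276 to 29541870 (ENSMUSG00000029771, plus strand). It had 23.23, 14.97, 12.02, 19.34 and 20.14 FPKM across WT libraries 1 to 5, against 0.77, 0.54, 4.12, 0.25 and 4.35 FPKM across the 5 libraries labelled cKO. Again the groups did not overlap, and numbers 3 and 5 were the high libraries of the latter. Irf5 fell by 3.76 on the log2 scale (SE 0.659, adjusted p = 9.77e-04 by limma), an 8.94-fold lower mean. It shares 1047 bases with Tnpo3 on the opposite strand, which was at 12.9 ± 0.368 FPKM in WT and 13.5 ± 0.291 FPKM in the libraries labelled cKO (SD, n = 5 each).

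Irf4, a partner of PU.1 in B cells and dendritic cells (ENSMUSG00000021356, chromosome 13 from 30933209 to 30950959, plus strand), was low throughout. It had 0.58, 0.93, 0.59, 0.82 and 0.64 FPKM across WT libraries 1 to 5, against 0.09, 0.04, 0.32, 0.05 and 0.47 FPKM across the 5 libraries labelled cKO, about 45 to 76 and 3 to 36 fragments. The groups did not overlap, and numbers 3 and 5 were once more the highest of those labelled cKO. It fell by 1.69 on the log2 scale (SE 0.413, adjusted p = 0.00669 by limma). That size rests on the pseudocount, since it was -2.38 with 0.01 and -0.53 with 1, where the call was lost. With the 7 libraries of low Xist the value was -1.75 at an adjusted p of 0.0878, and the gene was not called.

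Genes listed as IRF8 targets in myeloid cells were mostly called lower. Of the 7 tested of 8 listed, 5 fell (71.4%, against 16.8% of all genes tested) and 1 rose (4.6% of all genes tested), with a median log2 fold change of -1.88. The list does not separate genes that IRF8 activates from those it represses, and the part of Irf8 in these levels was not tested. Klf4, a transcription factor of monocytes, went from 19.1 ± 3.91 to 1.42 ± 1.94 FPKM (log2 fold change -4.84, adjusted p = 9.12e-04 by limma), and it was at 2.25 and 4.47 FPKM in libraries 3 and 5 labelled cKO against 0.11 to 0.15 FPKM in the others. Cybb, the catalytic subunit of the phagocyte oxidase, went from 32.6 ± 7.57 to 5.17 ± 4.62 FPKM, and Asah1, the acid ceramidase gene, from 28.2 ± 4.53 to 6.002 ± 2.43 FPKM (SD, n = 5 each). Nf1 was at 2.39 ± 0.298 and 2.84 ± 0.269 FPKM and was not called. The 1 gene called higher was Cdkn2b, a cyclin-dependent kinase inhibitor named here after its value was seen, at 0.054 ± 0.0607 FPKM in WT and 1.25 ± 0.658 FPKM in the libraries labelled cKO.

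Markers of the cells that use these IRFs differed in the same libraries. Of 12 monocyte and macrophage markers, 11 fell, and the summed level of the list was 1060 to 1842 FPKM in WT and 80.89, 23.8, 204.4, 10.98 and 331.9 FPKM in libraries 1 to 5 labelled cKO, so numbers 3 and 5 were highest here too. Conventional dendritic cell markers were called lower for 5 of 9, with sums of 49.13 to 63.43 FPKM in WT and 8.53 to 39.92 FPKM in those labelled cKO, and B-lymphoid markers for 7 of 10, with sums of 29.9 to 37.93 FPKM and 0.97 to 9.13 FPKM. The shares called lower in these 3 lists were 91.7%, 55.6% and 70%, against 16.8% of all genes tested. In each of these 3 lists no marker was at 0 in all libraries labelled cKO. Erythroid markers went the other way, 6 of 14 called higher (4.6% of all genes tested were). Their sums were 1807 to 3101 FPKM in WT and 4876 to 8072 FPKM in the libraries labelled cKO. The part of these cells in the values of Irf8, Irf5 and Irf4 was not tested.

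**Figure D3:**
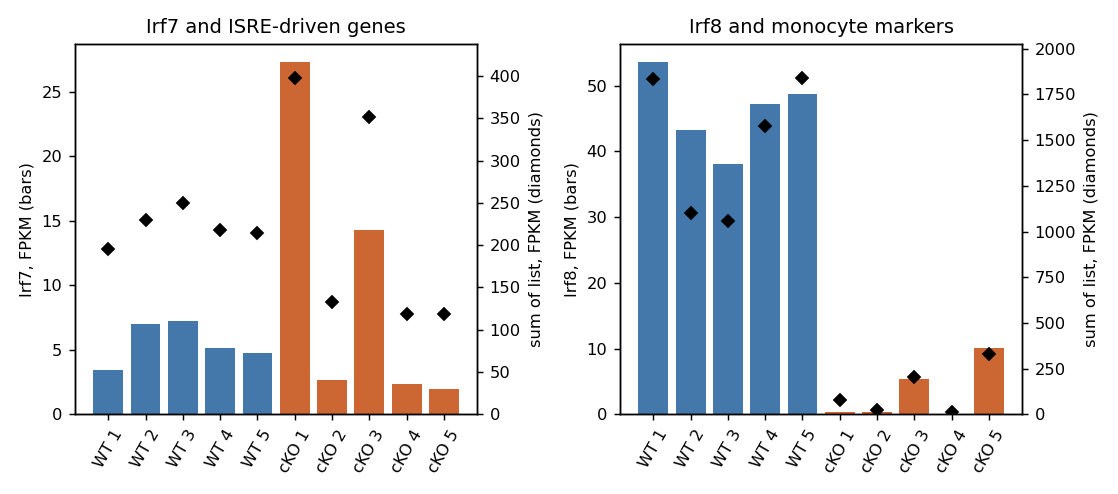
Bars give the FPKM of Irf7 (left) and Irf8 (right) in each library, blue for WT and orange for libraries labelled cKO, and diamonds on the right axis give the summed FPKM of a gene list in the same library, ISRE-driven genes on the left and monocyte and macrophage markers on the right. Irf7 and its list are highest in libraries 1 and 3 labelled cKO (27.34 and 14.26 FPKM), whereas Irf8 and its list are highest, among those labelled cKO, in libraries 3 and 5 (5.41 and 10.16 FPKM).

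Irf1 (ENSMUSG00000018899, chromosome 11 from 53660812 to 53669200, plus strand) encodes an activator induced by interferon gamma, and its promoter holds the GAS shown above. It had 9.0, 12.39, 10.69, 9.05 and 9.99 FPKM across WT libraries 1 to 5, against 3.85, 3.83, 2.93, 0.64 and 2.53 FPKM across the 5 libraries labelled cKO. The groups did not overlap, and number 4 was the lowest library. It fell by 2.05 on the log2 scale (SE 0.400, 95% interval -2.94 to -1.17, adjusted p = 0.00181 by limma), a 3.71-fold lower mean. The antisense transcript Gm12216 spans the whole of Irf1 and was at 0.834 ± 0.257 FPKM in WT and 0.196 ± 0.139 FPKM in the libraries labelled cKO (SD, n = 5 each). Reads of both strands cannot be told apart where counting ignores strand, and whether it did is not given in the sources used here.

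Irf2, which competes with IRF1 for the same sites, lies on chromosome 8 from 47192222 to 47300501 (ENSMUSG00000031627, plus strand). It had 6.1, 6.66, 6.79, 7.16 and 7.72 FPKM across WT libraries 1 to 5, against 3.06, 3.35, 4.24, 4.08 and 4.47 FPKM across the 5 libraries labelled cKO. The groups did not overlap, and both were narrow. The log2 change was -0.84 (SE 0.123, adjusted p = 3.77e-04 by limma), which is under 2-fold and therefore not a call. The exact permutation p was 0.00794 (two-sided), again the smallest possible.

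Genes listed as targets of interferon gamma were called lower for 6 of 19 (31.6%, against the 16.8% of all genes) and higher for 1, with a median log2 fold change of -0.89. The guanylate-binding proteins Gbp3 (13.1 ± 1.45 to 2.79 ± 1.67 FPKM), Gbp2 (5.72 ± 1.02 to 1.49 ± 1.41 FPKM) and Gbp5 (2.62 ± 0.319 to 0.664 ± 0.366 FPKM) fell most among those at a mean of at least 1 FPKM (SD, n = 5 each). The antigen presentation genes B2m and Tapbp were the most abundant of those not called, at log2 fold changes of -0.48 (adjusted p = 0.0912) and -0.40 (adjusted p = 0.0442, under 2-fold). For 11 of the 19, libraries 1 and 3 labelled cKO lay above numbers 2, 4 and 5, against 10.2% of all genes tested, a count made after the values were seen. In 1 of the 19, both also lay above every WT library, against 15.8% of all genes tested. Socs1, an inhibitor of JAK kinases and the 1 gene called higher, was at 0.28 to 0.52 FPKM in WT and at 0.35, 2.52, 1.99, 0.51 and 1.45 FPKM in libraries 1 to 5 labelled cKO. The number called lower was 9 without library 3 labelled cKO, 3 without library 4 labelled cKO and 2 with the 7 libraries of low Xist, and the call of Socs1 was lost under 13 of 21 alternatives, among them a replicate block, a covariate for Xist, a pseudocount of 1 and leaving out library 2, 3 or 5 labelled cKO or any WT library but number 1.

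Irf3, the constitutively made factor upstream of interferon beta, is on chromosome 7 from 44647033 to 44652272 (ENSMUSG00000003184, plus strand). It had 18.94, 18.13, 15.8, 16.41 and 20.92 FPKM across WT libraries 1 to 5, against 10.45, 12.59, 16.06, 12.39 and 15.66 FPKM across the 5 libraries labelled cKO. The groups overlapped, since library 3 labelled cKO was above library 3 of WT. The log2 change was -0.43 (SE 0.127, adjusted p = 0.0164 by limma; exact permutation p = 0.0159), under 2-fold. With a covariate for Xist the adjusted p was 0.0619, and with the 7 libraries of low Xist 0.0836. Irf3 shares 1104 bases with Bcl2l12 on the opposite strand, which was at 14.7 ± 1.24 FPKM in WT and 9.70 ± 1.81 FPKM in the libraries labelled cKO (SD, n = 5 each).

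Irf7, the interferon-inducible amplifier of the interferon alpha genes (ENSMUSG00000025498, chromosome 7 from 140842619 to 140846398, minus strand), showed no common direction. It had 3.47, 6.98, 7.25, 5.12 and 4.75 FPKM across WT libraries 1 to 5, against 27.34, 2.63, 14.26, 2.38 and 1.95 FPKM across the 5 libraries labelled cKO. Libraries 1 and 3 labelled cKO were above every WT library and the other three were below every one. The log2 change was 0.04 (SE 0.681, 95% interval -1.46 to 1.55, adjusted p = 0.966 by limma; exact permutation p = 0.937), and the interval is too wide to speak of equal levels. The standard deviation of the log2 values was 0.428 in WT and 1.71 in the libraries labelled cKO. The sign of the change turned without library 1 labelled cKO (-0.53), without library 3 labelled cKO (-0.30) and without library 1 of WT (-0.11).

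Irf9 (ENSMUSG00000002325, chromosome 14 from 55841028 to 55847812, plus strand) had 14.49, 18.66, 16.42, 15.02 and 14.79 FPKM across WT libraries 1 to 5, against 24.95, 14.43, 18.54, 11.78 and 11.1 FPKM across the 5 libraries labelled cKO. Libraries 1 and 3 were the highest of those labelled cKO, as for Irf7, and the groups overlapped. Its log2 change was -0.03 (SE 0.2, 95% interval -0.48 to 0.41, adjusted p = 0.904 by limma), and the sign turned to 0.07 with median-ratio scaling and 0.03 with quantile normalization. Stat2, whose product joins IRF9 in ISGF3, was at 7.95 ± 0.878 FPKM in WT and 4.79 ± 2.99 FPKM in the libraries labelled cKO (SD, n = 5 each), with an adjusted p of 0.0371 by limma but a change under 2-fold.

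Of the ISRE-driven interferon-stimulated genes, on which ISGF3 and IRF7 act, 14 of 27 tested (28 listed) were above every WT library in both library 1 and library 3 labelled cKO, as Irf7 was, against 15.8% of all genes tested. In 9 of these 14 the other three libraries labelled cKO were also below every WT library, the whole pattern of Irf7, which 0.128% of all genes tested had; these counts were chosen after the values of Irf7 were seen. By limma, 4 of the 27 were called lower (14.8%, against the 16.8% of all genes) and 0 higher (6 at an unadjusted p under 0.05, all lower), with a median log2 fold change of -0.52. Their summed level was 195.1 to 250.4 FPKM in WT and 398, 133.3, 351.9, 118.9 and 119 FPKM in libraries 1 to 5 labelled cKO, so numbers 1 and 3 were above every WT library and the other three below. Rsad2, which encodes the antiviral enzyme viperin and was chosen as an example after its values were seen, was at 30.82, 3.25, 17.72, 1.59 and 1.71 FPKM in those libraries and at 1.79 to 3.28 FPKM in WT. Isg15, a ubiquitin-like modifier chosen in the same way, was at 36.18, 6.04, 69.13, 3.72 and 3.22 FPKM and at 2.48 to 13.07 FPKM in WT.

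The remaining 13 genes were not above every WT library in both, among them the 4 called lower and 9 that were not called. Ifit2 and Cmpk2, named after their values were seen, were above every WT library in number 1 (11.5 and 31.64 FPKM) but below every one in number 3 (6.52 and 12.51 FPKM), and Ifi27l2a and Mx1 were highest, among the libraries labelled cKO, in numbers 3 and 5. Ifi27l2a fell from 20.1 ± 4.65 to 3.42 ± 3.14 FPKM, Zbp1, a sensor of Z-form nucleic acids, from 1.83 ± 0.664 to 0.690 ± 1.02 FPKM, and Mx1, whose promoter drives the Cre transgene, from 3.31 ± 0.314 to 1.26 ± 0.780 FPKM (SD, n = 5 each). The fourth was Ifi44, at 0.716 ± 0.126 and 0.286 ± 0.372 FPKM. The call of Zbp1 was lost under 10 of 21 alternatives. Bst2 and Trim25, the most abundant genes of the list, had log2 fold changes of -0.37 (adjusted p = 0.163 by limma) and -0.06 (adjusted p = 0.535). The number called lower was 9 without library 1 labelled cKO, 2 without library 2, 4 or 5 labelled cKO or library 2, 3 or 4 of WT, 2 with quantile normalization or a covariate for Xist, 1 with a pseudocount of 1, and 0 with the 7 libraries of low Xist.

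The neutrophil markers summed to 2745 to 3734 FPKM in WT and to 2646, 184, 875.2, 149.3 and 1135 FPKM in libraries 1 to 5 labelled cKO. Of the 12, 5 were called lower (41.7%, against 16.8% of all genes tested), and none was at 0 in all libraries labelled cKO. In WT most of that sum came from early granule genes such as Mpo and Elane, which were highest in number 5 among the libraries labelled cKO. In a count made after the values of Irf7 were seen, 5 of the 12 markers were above every WT library in libraries 1 and 3 labelled cKO, against 15.8% of all genes tested. These were Ltf, Ngp, Camp, S100a9 and Lcn2, which are genes of later granulocytes. The other 7 were not, among them S100a8, at 79.19 FPKM in library 3 labelled cKO and 40.49 to 113.81 FPKM in WT. Mmp8 was at 4.89 and 5.91 FPKM in libraries 1 and 3 labelled cKO (4.97 to 13.9 FPKM in WT), and Cebpe was below every WT library in both. S100a9 was at 894.75, 17.61, 157.68, 7.57 and 44.16 FPKM in libraries 1 to 5 labelled cKO and at 48.33 to 93.11 FPKM in WT, and Ngp, the neutrophilic granule protein gene, at 317.58, 8.85, 66.44, 2.41 and 16.04 FPKM and at 4.59 to 19.69 FPKM in WT. The whole pattern of Irf7, with libraries 2, 4 and 5 labelled cKO below every WT library, was held by 1 of the 12, S100a9, against 0.128% of all genes tested. Of 14 erythroid markers, 11 were also above every WT library in libraries 1 and 3 labelled cKO, and 0 had the whole pattern. None of Ltf, Ngp, Camp, S100a9 and Lcn2 was called, and the part of these cells in the split of Irf7 and of the ISRE-driven genes was not tested.

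**Figure D4:**
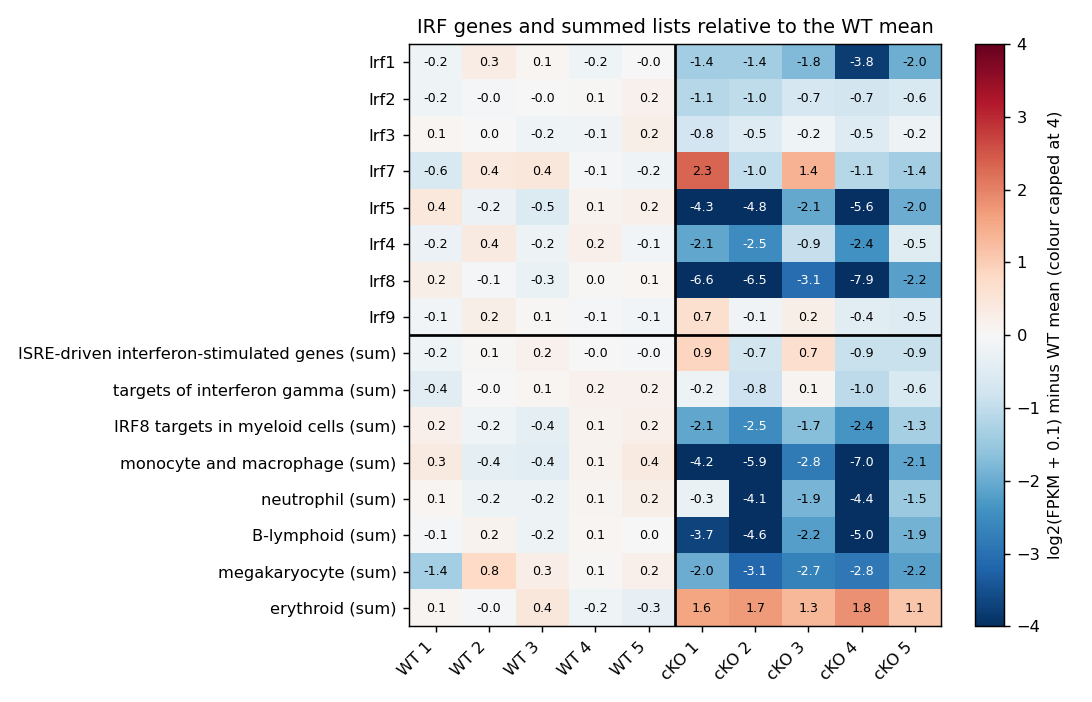
Each cell gives log2(FPKM + 0.1) minus the WT mean for 1 IRF gene or for the sum of 1 gene list (rows) in 1 library (columns), with colours limited at 4 in either direction. Irf7 and the ISRE-driven list are positive in libraries 1 and 3 labelled cKO and negative in the other three, whereas Irf8, Irf5, Irf4 and the monocyte list are negative in all 5 and least so in numbers 3 and 5.

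No interferon ligand, receptor, sensor or kinase gene of the lists was called higher. Of the interferon ligands, Ifnb1, Ifna1, Ifna2, Ifna4, Ifna5, Ifnl2 and Ifnl3 were listed at 0 in all 10 libraries, and Ifng, which reached 0.14 FPKM, was not tested. Among 11 receptor and JAK-STAT genes, 2 fell (18.2%, near the 16.8% of all genes) and 0 rose, with a median log2 fold change of -0.79. On the adjusted p alone, 8 of the 11 were lower, against 28.3% of all genes tested. By that rule 1 was higher, against 16.7% of all genes tested, namely Jak1, at 42.6 ± 2.69 and 53.6 ± 8.01 FPKM. The 2 called lower were Ifnar1 (13.7 ± 1.83 to 6.51 ± 0.780 FPKM), a chain of the interferon alpha and beta receptor, and Ifngr2 (10.7 ± 1.85 to 5.13 ± 0.802 FPKM), a chain of the interferon gamma receptor. Both log2 fold changes, -1.05 and -1.05, were just past the 2-fold limit, and the calls were lost under 4 and 5 of the alternatives. Ifngr1 was at 96.1 ± 16.9 and 58.7 ± 15.0 FPKM and passed on the adjusted p alone (0.00644).

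Of 18 sensors, adaptors and kinases that lead to IRF proteins, 6 fell (33.3%, against 16.8% of all genes) and 0 rose, with a median log2 fold change of -0.57. On the adjusted p alone, 9 were lower and 1 was higher, against 28.3% and 16.7% of all genes tested. Tlr9, the endosomal receptor of CpG DNA, went from 2.80 ± 0.648 to 0.164 ± 0.205 FPKM, its chaperone Unc93b1 from 50.8 ± 8.05 to 6.78 ± 5.81 FPKM and Sting1, the adaptor of cytosolic DNA sensing, from 20.6 ± 3.92 to 3.37 ± 2.69 FPKM (SD, n = 5 each). The shared adaptor and kinase of Toll-like receptor signalling were not called, Myd88 with a log2 fold change of -0.02 (adjusted p = 0.847 by limma) and Irak1 with 0.10 (adjusted p = 0.250). The direction of Myd88 turned with median-ratio scaling.

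Of 14 partners and cofactors of IRF proteins, 5 fell (35.7%) and 1 rose, with a median log2 fold change of -0.38. The number that fell was 3 with median-ratio scaling, quantile normalization or a mean of at least 1 FPKM, and 2 with a pseudocount of 1. Spi1 fell by 1.73 on the log2 scale, and Batf, which joins IRF4 and IRF8 at AP-1 sites, went from 6.50 ± 1.19 to 3.05 ± 0.913 FPKM, a fall under 2-fold with median-ratio scaling, quantile normalization, a pseudocount of 1 or library 1 labelled cKO left out. Jun rose from 2.16 ± 0.381 to 7.49 ± 3.69 FPKM (log2 fold change 1.59, adjusted p = 0.00368 by limma), a call that was lost with a covariate for Xist and with the 7 libraries of low Xist. Tcf3, the E protein, was at 47.1 ± 6.70 and 67.1 ± 4.06 FPKM (log2 fold change 0.52, adjusted p = 0.00125, under 2-fold), and the corepressor Irf2bp1 at 15.5 ± 2.18 and 16.1 ± 4.05 FPKM was not called (SD, n = 5 each). Over the 96 genes of the 7 lists that were tested, each counted once, 28 were called lower and 3 higher. Of all genes tested, 16.8% were called lower and 4.6% higher.

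Because PU.1 is the DNA-binding partner of IRF8 and IRF4, each IRF gene was also set against Spi1 within its library, as log2((IRF + 0.1)/(Spi1 + 0.1)). Relative to Spi1, the libraries labelled cKO were lower for Irf8 by a log2 difference of -3.51 and for Irf5 by -2.03, and higher for Irf9 (1.70), Irf3 (1.30) and Irf2 (0.90). The exact permutation p was 0.00794 (two-sided, unadjusted over 8 ratios) for each of these 5. Spi1 itself fell by 1.73 on the log2 scale, so a gene of equal level in both groups would also have a higher ratio. The higher ratios of Irf9, Irf3 and Irf2 are therefore no rise of these genes. Their own log2 fold changes were -0.03, -0.43 and -0.84. The Irf8 to Spi1 value was 0.08 to 0.33 in WT and -4.32, -4.32, -1.13, -6.23 and -0.51 in libraries 1 to 5 labelled cKO, so the groups did not overlap. The Irf9 value was -1.64 to -0.88 in WT and -0.39 to 1.39 in those labelled cKO, also without overlap. With the 7 libraries of low Xist, the smallest possible p is 0.0476, which Irf2, Irf3 and Irf9 gave, whereas the log2 ratio of Irf8 to Spi1 was -3.53 (exact permutation p = 0.143) and the log2 ratio of Irf5 to Spi1 -2.08 (exact permutation p = 0.143).

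The other 3 ratios did not pass. Irf7 differed by 1.78 (exact permutation p = 0.0794), Irf1 by -0.32 (p = 0.746) and Irf4 by 0.05 (p = 0.905), and the Irf1 ratio ranged from -4.26 to -1.28 in the libraries labelled cKO against -2.32 to -1.50 in WT. Without library 4 labelled cKO, the log2 ratio of Irf1 to Spi1 was 0.18. With Ptprc, the pan-leukocyte gene that encodes CD45, in place of Spi1, the differences were -3.52 for Irf8, -2.04 for Irf5, 1.68 for Irf9, 1.28 for Irf3 and 0.88 for Irf2, with 1.76 for Irf7 (exact permutation p = 0.0476). Ptprc itself fell by 1.72 on the log2 scale, almost as much as Spi1, so it is not a steady reference either. When any 1 WT library was left out, the log2 ratio of Irf5 to Spi1 was -2.06 to -1.97 and its exact permutation p rose to 0.0556. The log2 ratio of Irf4 to Spi1 turned to -0.63 with a pseudocount of 0.01, and the log2 ratio of Irf7 to Spi1 was 2.13 (p = 0.0397, exact) without library 4 and 2.21 (p = 0.0317, exact) without library 5 labelled cKO.

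**Figure D5:**
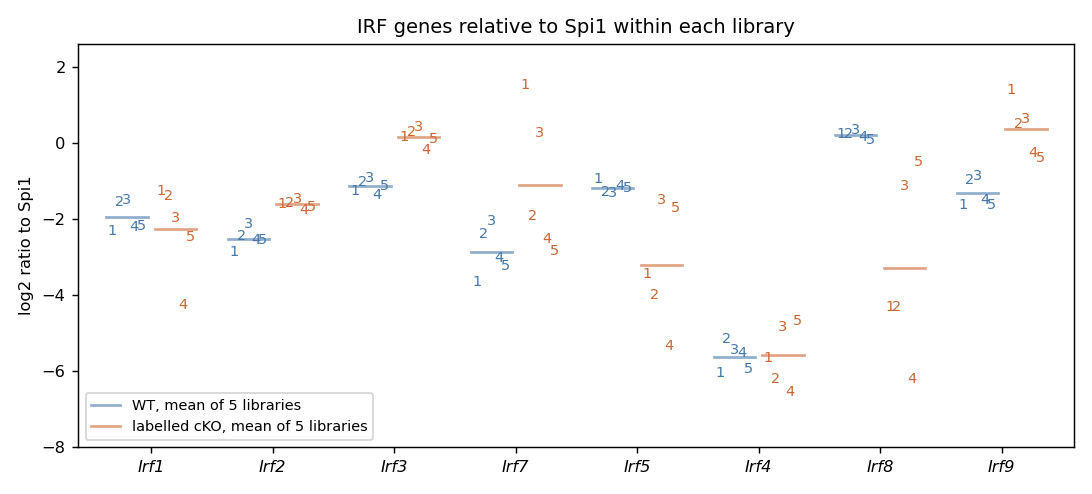
Log2 ratio of each IRF gene to Spi1 in each library, with 1 digit per library, blue for WT and orange for libraries labelled cKO, and a line at the mean of each group of 5. Irf8 and Irf5 lie below the WT libraries in all 5 libraries labelled cKO (differences of the means -3.51 and -2.03), and Irf2, Irf3 and Irf9 lie above them in all 5.

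The genes whose profile over the 10 libraries was most like that of a called IRF gene were sought among 12327 genes whose mean reached 1 FPKM, by the root mean square difference of log2(FPKM + 0.1) relative to the WT mean. For Irf8 these were Tifab (0.261 log2 units), Ifi209 (0.302) and Mpeg1 (0.430), a perforin-like gene of macrophages that is also in the monocyte list. Tifab was at 66.94 to 107.13 FPKM in WT and at 1.12, 0.7, 9.6, 0.15 and 16.02 FPKM in libraries 1 to 5 labelled cKO, with numbers 3 and 5 highest as for Irf8. At least 2 of these 3 genes were found again whichever library was left out.

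For Irf5 the nearest genes were Myadm (0.236 log2 units), Ticam2 (0.264), an adaptor of Toll-like receptor 4, and Clec7a (0.275), the receptor of fungal beta-glucan, but 0 of the 3 were found again without library 1 or library 4 labelled cKO. For Irf1 they were Cdyl2 (0.322), Dusp23 (0.346) and Litaf (0.364), with 0 found again without library 2 or library 4 labelled cKO. Irf4, below 1 FPKM, was not compared. All the points share the 10 libraries and their depth, and the likeness is a description of levels alone.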

How the data were processed

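RNA-seq of Lin- bone marrow cells gave 5 WT and 5 cKO libraries. Per the submitters' processing notes, cutadapt 1.9.1, HISAT2 2.0.1 and HTSeq 0.6.1 were used with GRCm39, and what the authors deposited is 1 FPKM value for each gene in each library, with 2 decimals. The annotation, the gene lengths and whether counting used strand were not given in the sources used here. Columns were mapped to samples by name, with 0 columns left unused.

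FPKM are not counts, so the study's count test was replaced by limma 3.58.1 (lmFit, eBayes with trend; R 4.3.3), two-sided, of log2(FPKM + 0.1) for the 18742 genes whose mean reached 0.1 FPKM, with Benjamini-Hochberg adjustment over all of them. A call needed both an adjusted p under 0.05 and a 2-fold difference. Fold changes on this scale understate the change of low genes. Single values were compared by exact permutation (scipy 1.17.1, Python 3.11.15). Symbols and positions came from the GENCODE annotation of GRCm39, which held 54749 of the identifiers; the marker Vpreb1 was not matched.

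Depth was read from genes with 1 transcript, whose FPKM fall on whole fragments (95.9% to 96.3% of values of up to 20 fragments within 0.2), and fragment numbers of named genes are approximate. Since steps differ with gene length, no count test was run. Within groups, no pair of libraries agreed within sampling noise (the lowest chi-square per degree of freedom was 4.08). The limma step was run on simulated data that had the WT spread in both groups. That run cannot show how the step behaves where the libraries labelled cKO spread more widely, as for Irf8 (SD of the log2 values 0.186 in WT and 2.485 in those labelled cKO).

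The IRF genes and the lists were chosen from general knowledge with earlier results of these data known. Named were the 8 IRF genes, Dhx9 and Xist (a further gene of this rule is not reported here), in each pathway list up to 3 called genes with the largest change and up to 2 uncalled with the highest mean among those at 1 FPKM or more, the highest markers, the 3 genes nearest in profile and genes overlapping an IRF gene. Each result was recomputed with pseudocounts of 0.01 and 1, without a filter and with one at 1 FPKM, with median-ratio scaling, quantile normalization, no trend, calls on adjusted p alone, a replicate block, a covariate for Xist above 1 FPKM, the libraries at or under it, Ptprc as the reference and each library left out.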

Additional observations from a re-analysis of the deposited data

Results flagged for a closer look

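Groups of 5 were searched for a library far from the others by Dixon's test, over the named genes. Of 136 groups examined, 5 had such a library, where chance would give about 6.8. None was a group of an IRF gene. Ifngr2, the interferon gamma receptor chain, was at 3.73 FPKM in library 4 labelled cKO and at 5.2 to 5.62 FPKM in the others of that label. Zbp1 was at 2.47 FPKM in library 3 labelled cKO and at 0.04 to 0.59 FPKM in the others, a library that was also high for Irf7. Dntt, the B- and T-lymphoid polymerase, was at 1.56 FPKM in library 5 labelled cKO and at 0 to 0.41 FPKM in the others, a library that was also high for Irf8 and Irf4. Prss34, a protease of mast cells and basophils, was at 328.66 FPKM in WT library 3 and at 671.4 to 722.61 FPKM in the other WT libraries. Cdyl2, the gene nearest in profile to Irf1, was at 3.29 FPKM in WT library 1 and at 2.53 to 2.74 FPKM in the others.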

How the results depend on the processing

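Of 167 values of IRF log2 fold changes over the alternatives, 155 kept their direction and their side of the threshold. Over all alternatives, Irf8 ranged from -6.01 to -4.10, Irf5 from -4.21 to -2.90 and Irf1 from -2.22 to -1.62, and these 3 were called in each. Irf4 had no value with a mean of at least 1 FPKM required. Irf2 (-0.84) and Irf3 (-0.43) were called on the adjusted p alone, Irf2 with a range of -0.89 to -0.54. The log2 fold change of Irf7 ranged from -0.53 to 0.41 and the log2 fold change of Irf9 from -0.21 to 0.0832 when 1 library was left out. The cause of these moves was not tested.

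Of the pathway genes, 28 were called lower and 17 with the 7 libraries of low Xist, where fewer samples enter. The 3 called higher became 1 with a mean of at least 1 FPKM, a covariate for Xist or the libraries of low Xist, 8 on the adjusted p alone, and 2 to 5 when 1 library was left out, with 5 without library 1 labelled cKO. Directions turned for some genes that were not called. With median-ratio scaling, the log2 fold change of Irf9 was 0.0713 (0.0304 with quantile normalization), the log2 fold change of Cd48 0.0636, the log2 fold change of Myd88 0.0884 and the log2 fold change of Trim25 0.0414. With a covariate for Xist or the libraries of low Xist, the log2 fold change of Irf2bp1 was -0.0197 and the log2 fold change of Myd88 0.0093. The log2 ratio of Irf4 to Spi1 was -0.63 with a pseudocount of 0.01.

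When 1 library was left out, the log2 fold change of Cd48 was -0.17 to 0.29, the log2 fold change of Irf2bp1 -0.0684 to 0.19, the log2 fold change of Myd88 -0.0572 to 0.0089, the log2 ratio of Irf1 to Spi1 -0.57 to 0.18 and the log2 ratio of Irf4 to Spi1 -0.18 to 0.29. Of 1239 values of the 59 other named genes, 1168 kept their direction and side, and 13 genes lost a call at least once. Quantile normalization shifted the median change over all genes from -0.11 to 0.10 and the share of calls that were higher from 21.5% to 41.3%, and a pseudocount of 1 gave 1486 lower and 356 higher calls against 3153 and 862. The exact permutation test passed for 6 of 8 IRF levels and 5 of 8 ratios to Spi1, and with the libraries of low Xist for 4 levels and 3 ratios.

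With a replicate block, 4 IRF genes were called lower and 0 higher, and over all genes 3107 and 857. Deviations of libraries of the same number had low correlations (-0.0103 to 0.117), yet 3 of 5 WT libraries correlated best with their own number. Whether the numbers pair the libraries cannot be decided from these values. Depth limits Irf4, at as few as 3 fragments in a library.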

Other observations

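Marker lists of further bone marrow cell types were counted with the same limma calls. Of 4 plasmacytoid dendritic cell markers tested, a cell type with high IRF7 and IRF8, 2 were called lower, and the list summed to 6.49 to 10.26 FPKM in WT and 3.11 to 14.8 FPKM in the libraries labelled cKO. Cox6a2, which was not called, was at 2.36 ± 0.852 FPKM in WT and at a higher mean, 6.82 ± 4.6 FPKM, in the libraries labelled cKO (SD, n = 5 each). It was left out after its values were seen, and without it the sums were 5.07 to 7.08 FPKM and 1.57 to 2.68 FPKM. Siglech, a marker named here after its values were seen, was at 1.91 to 3.38 FPKM in WT and at 0 in 3 of the 5 libraries labelled cKO, with a log2 fold change of -3.95 (adjusted p = 1.46e-04 by limma). Called lower were also 6 of 10 T and NK cell markers, 10 of 10 megakaryocyte markers, 8 of 8 markers of mast cells, basophils and eosinophils and 7 of 10 stem and progenitor markers, with 0 called higher in each by limma. Of 7 stromal and endothelial markers tested, 5 were called lower and 1 higher. For comparison, 16.8% of all genes tested were called lower and 4.6% higher. The summed level of the megakaryocyte list was 300.4 to 1356 FPKM in WT and 88.45 to 193.2 FPKM in the libraries labelled cKO, where its highest library was number 1. That of the stem and progenitor list was 151.6 to 206 FPKM and 70.09 to 139.5 FPKM. Cd48, at 77.7 ± 10.3 and 82.4 ± 32.5 FPKM, was not called and was left out after its values were seen. Without it the sums were 90.54 to 123.2 FPKM and 22.78 to 46.66 FPKM, with number 5 highest and number 2 lowest of those labelled cKO.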
